A study of Mus musculus with 14 samples.

Results

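Duodenal tumors of Lrig1-null mice were compared with the normal duodenum arrays that carried a high level of S100g, the gene of the vitamin D-induced calcium-binding protein of proximal enterocytes. Of the 14 arrays of the series, 10 entered this comparison: all 6 tumor arrays and the 4 of the 8 non-tumor arrays whose log2 S100g signal lay above 11. The 4 chosen normal arrays were wildtype replicates 1 and 3 and adjacent replicates 1 and 2, and the 4 left aside were wildtype replicate 2 and adjacent replicates 3, 4 and 5. The question was which tumor changes hold against duodenum with the gene expression of its proximal part.

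Tumors and adjacent tissue came from mice with the genotype Lrig1-CreERT2/CreERT2 (Lrig1-/-), in which both copies of Lrig1 carry the CreERT2 insertion, so adjacent tissue shares the null genotype of the tumors. The wildtype mice carried no insertion. All mice had a background of 129S7/SvEv and C57/BL6, were age-matched, and were sampled in the proximal duodenum per the labels. The labels give the mice's age as matched only, with no value. The chosen normal arrays therefore mixed 2 wildtype and 2 Lrig1-null mice. Tumor replicate 2 shared a mouse with adjacent replicate 1, and tumor replicate 3 with adjacent replicate 2. The labels' mouse names begin with F or B, whose meaning is not given: 3 of the 4 chosen normal arrays, 3 of the 6 tumors and 0 of the 4 other normal arrays came from mice with an F.

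Lrig1 is a transmembrane protein that dampens signalling by ErbB receptors and marks quiescent stem cells of the gut, and its loss leads to duodenal adenomas in mice. The duodenum changes along its length. The part next to the stomach takes up iron and calcium and drains Brunner's glands, while uptake of bile acids, vitamin B12 and several sugars and acids is found further down. A tumor set against normal tissue from another level of the gut therefore differs by region as well as by disease.

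S100g chose the arrays, so its values are given as a description. The chosen normal arrays lay at 13.51 (wildtype 1), 13.74 (adjacent 1), 13.45 (adjacent 2) and 13.44 (wildtype 3), the others at 7.86 to 9.25. No array lay near the threshold: the nearest below it was at 9.25 and the nearest above it at 13.44. Tumors lay between 12.73 and 13.36, with a median of 13.04, all below the chosen normal arrays and all above the others.

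Lrig1 itself was read in every sample. Its log2 signal was 9.54 and 8.22 in the chosen wildtype arrays, 7.14 and 7.40 in the chosen adjacent arrays, and 7.65 to 8.54 in tumors (median 8.05). Tumors lay above both null adjacent arrays, and wildtype replicate 3 lay within the range of the tumors. Across the mixed reference the difference was 0.13 ± 0.36 (SE; limma adjusted p = 0.89). The value depended on which normal arrays were used: against the 2 adjacent null arrays alone Lrig1 was higher in tumors by 0.83 (limma adjusted p = 0.022), and against the 2 wildtype arrays alone it differed by -0.81 (adjusted p = 0.24). These 2 include wildtype replicate 1, which stands apart in other genes, as given below. For Lrig1 the normal arrays left aside ran from 6.95 to 9.34, so the highest of them lay near wildtype replicate 1. The table does not say where the probes lie relative to the insertion, so this signal does not measure the loss of the protein.

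The chosen arrays differed from the other normal arrays in far more than S100g. For 2051 of 19938 genes (10.3%) the 4 chosen arrays lay all above or all below the other 4, with 534 above and 1517 below. These genes follow the choice of arrays, and their tumor differences are given below as description, without a test. A gene whose sets overlap through a single array stays among the tested genes and can still differ between the sets. Gkn3, for example, ran from 7.02 to 13.28 in the chosen and from 6.71 to 7.03 in the other normal arrays. The largest differences downward, chosen minus other normal arrays, were in Slc5a12 (-6.09), a lactate and monocarboxylate transporter, Enpp7 (-5.03), the alkaline sphingomyelinase of the brush border, Cubn (-4.36), the receptor for vitamin B12 bound to intrinsic factor, Slc23a1 (-4.25), a vitamin C transporter, Slc5a4b (-3.93) and Slc13a2 (-3.41), a citrate and succinate transporter. The largest upward were in the pancreatic enzyme genes Try10 (7.25), Try5 (6.80), Pla2g1b (6.64), Ctrl (6.57) and Try4 (6.26) and in Reg2 (6.99), a secreted lectin of the regenerating family. Trypsinogen genes are near-identical copies, and the array may not tell them apart.

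Pancreatic acinar RNA therefore stood in the reference itself. The 12 acinar genes of the list averaged 13.88, 13.15, 14.09 and 13.08 in the chosen normal arrays, 6.95 to 7.09 in the other normal arrays and 7.22 to 9.43 in tumors. Carboxyl ester lipase, Cel, averaged 13.8 ± 0.50 (SD, n = 4) in the chosen arrays against 7.13 ± 0.75 (n = 6) in tumors. All 12 genes followed the choice of arrays. The median difference of the list was -5.73 against the chosen arrays and 0.83 against the others, so low acinar genes in tumors depend on which normal arrays are used. The part of this pancreatic RNA in other results was not tested.

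Wildtype replicate 1 stood apart from the other 3 chosen arrays. It carried gastric surface genes at the level of the tumors: Cldn18, a claudin of gastric epithelium, measured 12.81 there against 6.55 to 6.80 in the other 3, and Gkn2, a gastrokine, 14.20 against 6.74 to 8.95. The 10 genes in which it stood highest above the highest of the other 3, by 5.25 to 7.02, were Gsdmc4, Chil4, Gsdmc2, A2ml1, Cldn18, Muc5ac, Gkn1, Vsig1, Psca and Gkn2. It also stood lowest, by 2.18 to 2.67 below the next, in Cyp2b10, Reg3a, Slc7a15, Lct, Cyp3a25 and Nat8f2, among them lactase and drug-metabolising enzymes. Counts of list genes called are also given without this array wherever they differ.

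**Figure D1:**
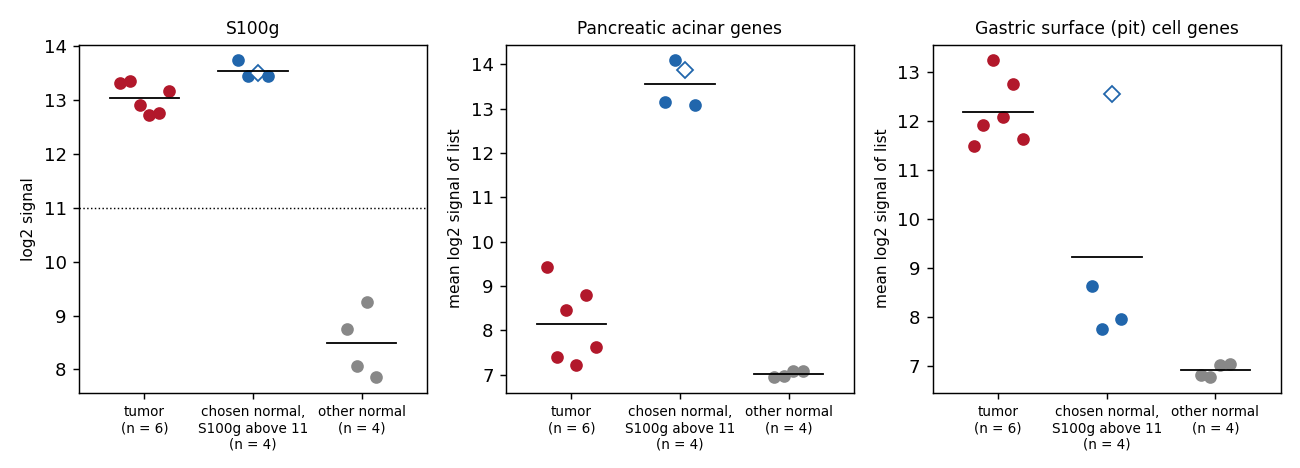
Log2 signal of S100g (left, dotted line at the threshold of 11) and mean log2 signal of the pancreatic acinar list (middle) and the gastric surface cell list (right) in each array; black bars are group means and the open diamond is wildtype replicate 1. S100g and the acinar list separate the chosen from the other normal arrays, and wildtype replicate 1 sits at 12.55 for gastric surface genes, among the tumors at 11.48 to 13.23.

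Of the 17887 genes whose levels did not follow the choice of arrays, 2044 rose (11.4%) and 807 fell (4.51%) in tumors at an adjusted p of 0.05. Of these, 391 rose (2.19%) and 205 fell (1.15%) by 2-fold or more. The median log2 fold change over these genes was 0.04. Without wildtype replicate 1, 2418 rose (13.5%) and 841 fell (4.7%). Quantile normalization between arrays moved the split to 1905 raised and 1204 lowered. The counts depended on which mice were used. Among arrays of mice with an F, 3 tumors against 3 normal, 640 rose and 237 fell, and against the 2 wildtype arrays alone 146 rose and 90 fell. Leaving out adjacent replicate 1 gave 897 raised and 354 lowered genes, and leaving out adjacent replicate 2 gave 932 and 420; either step also removes 1 of the 2 mouse pairs, so that no block could be fitted.

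Over all genes, the 6 tumors lay all above the 4 chosen arrays in 1501 (7.53%) and all below them in 894 (4.48%). The counts of list members that rose or fell, given below, are to be read against the 11.4% raised and 4.51% lowered over all tested genes. Those from the fit without wildtype replicate 1 are to be read against 13.5% raised and 4.7% lowered. Counts of members without overlap are to be read against 7.53% and 4.48%. Counts at an unadjusted p under 0.05 are given for some lists only. No share over all genes was counted at that threshold, so they are not read as a rise or fall of a list. The fold changes are fitted with the mouse as a block and can differ slightly from the difference of the group means.

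Among the 12 most raised genes, Mcpt2 belongs to the mast cell list, Gkn3 to the gastric surface list and Anxa1 and Anxa8 to the regenerative list. Mcpt2, a chymase of mucosal mast cells, had the largest rise, 4.69 ± 0.75 on the log2 scale (adjusted p = 0.0018), from 8.19 ± 2.43 (SD, n = 4) to 12.9 ± 0.46 (n = 6). Its normal values were 11.25 in wildtype 1, 8.76 in adjacent 1, 7.22 in adjacent 2 and 5.55 in wildtype 3, and tumors ran from 12.10 to 13.32 with a median of 13.09. All tumors lay above all normal arrays, but the normal arrays spread over several log2 units, with wildtype replicate 1 closest to the tumors. Without that array the rise was 5.58.

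Gkn3, a gastrokine of the stomach's mucous cells, rose by 4.42 ± 0.87. It measured 13.44 to 13.96 in tumors (median 13.68), 13.28 in wildtype 1, 9.66 in adjacent 1, 7.02 in adjacent 2 and 7.78 in wildtype 3. The gap between the lowest tumor and wildtype replicate 1 was small beside the gap to the other 3 arrays. Wfdc18, a small secreted protein with a whey acidic protein domain, rose by 4.22 ± 0.65 and ran from 12.12 to 12.65 in tumors (median 12.40), against 11.36, 7.95, 6.99 and 6.78 in wildtype 1, adjacent 1, adjacent 2 and wildtype 3. Chad, a leucine-rich matrix protein, rose by 3.77 ± 0.62 and Tmem45a by 3.56 ± 0.59.

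The annexins Anxa1 (3.43 ± 0.48), which is an anti-inflammatory phospholipid-binding protein, and Anxa8 (3.21 ± 0.44) were among the 12, as was the calcium-binding S100a6 (3.27 ± 0.58). Anxa1 measured 10.30 to 11.42 in tumors (median 10.96) and 9.74, 7.16, 6.87 and 6.50 in wildtype 1, adjacent 1, adjacent 2 and wildtype 3. The remaining 4 were the sialyltransferase gene St8sia6 (3.18 ± 0.44), complement factor I, Cfi (3.13 ± 0.39), the aspartyl protease gene Bace2 (2.90 ± 0.48) and the chloride transporter gene Slc26a9 (2.89 ± 0.49), which is active in gastric surface cells. In 11 of these 12 genes wildtype replicate 1 was the highest of the chosen normal arrays. The exception was Cfi, in which adjacent replicate 1 stood higher, at 9.51 against 9.24. Leaving out wildtype replicate 1 moved the 12 changes upward, to between 3.38 (Cfi) and 5.58 (Mcpt2).

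Among the 12 most lowered genes, Cyp3a11, Cyp2b10 and Cyp2c29 belong to the drug metabolism list, Tmprss15 to the brush-border peptidases and Gzmb to the T and NK cell list. Cyp3a11, a cytochrome P450 that oxidises drugs and bile acids, fell most, by 4.04 ± 0.35 (adjusted p = 5.9e-05). Its normal values lay close together, at 12.51 in wildtype 1, 12.42 in adjacent 1, 12.50 in adjacent 2 and 12.91 in wildtype 3, and tumors ran from 7.45 to 9.75 with a median of 8.69. The other normal arrays lay at 12.44 to 12.84, so that the fold change was -4.26 against them and hardly depended on the reference. Without wildtype replicate 1 it was -4.06.

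Cyp2b10, a P450 induced through the nuclear receptor Car, fell by 3.85 ± 0.56. It was at 9.19 in wildtype 1 and at 11.86, 13.04 and 12.72 in adjacent 1, adjacent 2 and wildtype 3, against 7.47 to 8.81 in tumors (median 7.64). Wildtype replicate 1 lay nearest to the tumors here too, and without it the change was -4.57. Cyp2c29 fell by 2.88 ± 0.49 and Cyp2c55 fell by 2.86 ± 0.35. The Cyp2c genes are close copies of each other, and probes may be shared between them.

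Spink1, a trypsin inhibitor, fell by 3.46 ± 0.30. It is also a product of acinar cells. It measured 11.76 to 12.72 in the chosen arrays and 7.86 to 9.66 in tumors. In the other normal arrays, where the acinar list was low, it measured 11.75 to 12.27. The part of acinar RNA in the Spink1 result was not tested. Slc27a2, a fatty acid transporter and acyl-CoA synthetase, fell by 3.35 ± 0.29, Aqp7, a channel for glycerol and water, by 2.82 ± 0.31, and Hsd17b6, a steroid and retinol dehydrogenase, fell by 2.61 ± 0.27. Tmprss15, the enteropeptidase that activates trypsinogen, fell by 2.75 ± 0.45, with 9.52 in wildtype 1 against 11.18 to 11.46 in the other 3 chosen arrays and 6.72 to 9.31 in tumors. Slc30a2, a zinc exporter, fell by 2.55 ± 0.24 and Dao, D-amino acid oxidase, fell by 2.54 ± 0.16. Gzmb, granzyme B, is described with the T and NK cell genes. In bulk tissue a lower signal can come from fewer cells of a type or from less RNA per cell, and these cannot be told apart. Each of these 24 genes kept its call whichever of the 10 arrays was left out.

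**Figure D2:**
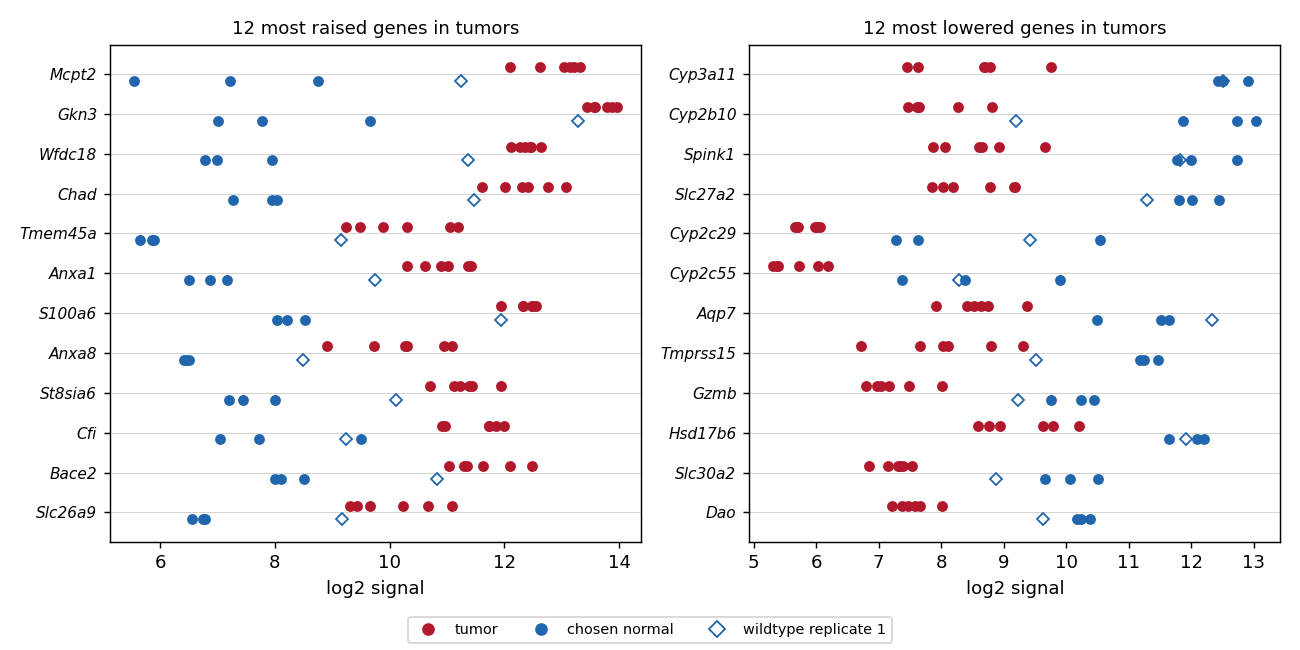
Log2 signal of the 12 most raised (left) and 12 most lowered (right) genes in each tumor (red) and each chosen normal array (blue), with wildtype replicate 1 as an open diamond. Tumors and normal arrays do not overlap in any of them, which the rule for naming required; S100a6 of wildtype replicate 1 at 11.94 all but touches the lowest tumor, and Cyp3a11 has its 4 normal arrays between 12.42 and 12.91.

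Of the called list members named below, these lost their call when at least 1 array was left out, with the direction kept: C1qb, C1qc, Cck, Cdhr2, Cdhr5, Chil4, Cldn18, Cxcl2, Defa24, Ereg, Foxa3, G6pc, Gkn2, Grem1, Hmox1, Hnf4g, Iapp, Il1a, Il4ra, Itln1, Lgr5, Mcm5, Mcpt1, Muc13, Neurod1, Nr0b2, Nrg1, Phlda1, Plk1, Ptgs2, Rbp2, Reg3a, Scg2, Slc52a3, Slc7a9, Sox21, Sparc, Spdef, Timp1, Tpsb2, Vdr, Xcr1 and Zg16. Leaving out adjacent replicate 1 or 2 cost the most calls, 39 and 38. The highest adjusted p among them was 0.25. The other called list members named below kept their call in all 10 fits.

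Gastric surface (pit) cells secrete gastrokines, trefoil factor 1 and mucin 5AC. Of the list's 15 genes, 6 followed the choice of arrays; of the other 9, 5 rose, and the median over all 15 was 3.96. The list mean was 11.48 to 13.23 in tumors, 7.75 to 8.62 in the 3 chosen arrays other than wildtype replicate 1, 12.55 in that array and 6.78 to 7.04 in the other normal arrays. Vsig1, a junctional adhesion protein of the stomach, rose by 5.20 ± 1.05. Its tumor values were 11.80 to 13.02 (median 12.11), and its chosen values 12.17 in wildtype 1, 6.49 in adjacent 1, 5.33 in adjacent 2 and 5.02 in wildtype 3. Wildtype replicate 1 lay inside the tumor range for Vsig1, and so did it for Gkn2 (5.04 ± 1.05) and Cldn18 (4.28 ± 1.02). Without that array these changes were 6.62, 6.45 and 5.60, and 6 of the 9 genes rose. Across the 4 chosen arrays, Muc5ac differed by 2.03 ± 1.5 (adjusted p = 0.44), with tumors spread from 7.27 to 13.93.

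Brunner's glands and mucous neck cells make mucin 6, trefoil factor 2 and pepsinogen C. Of 7 genes in this list that did not follow the choice of arrays, 3 rose: Muc6 (4.35 ± 0.87), the gel-forming mucin, Pgc (4.01 ± 0.78), the pepsinogen, and Aqp5 (2.82 ± 0.52), a water channel. In each of these the tumors overlapped the chosen arrays only through wildtype replicate 1. Muc6, for example, was 13.48 to 14.23 in tumors and 13.53, 9.68, 7.07 and 8.40 in wildtype 1, adjacent 1, adjacent 2 and wildtype 3. A4gnt, which caps the glycans of gland mucin, followed the choice of arrays and differed by 3.52. The count was 4 of 7 without wildtype replicate 1. The chief and parietal cell list, which covers acid and pepsin secretion, had 0 of 8 genes raised and 0 lowered in limma. Its median was 0.16. Cblif, gastric intrinsic factor, differed by 1.01 ± 0.82 (adjusted p = 0.50), a value that rests on tumor replicate 3: it was 11.50 there against a tumor median of 6.75, and without that array the difference was -0.07. Slc26a7 differed by 0.41 ± 0.16 (adjusted p = 0.095). At an unadjusted p under 0.05, 1 of these 8 genes was higher and 0 were lower.

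Among transcription factors of the stomach and foregut, 4 of 8 rose. Foxa1, a pioneer factor of foregut and glandular epithelium, rose by 2.66 ± 0.37. It measured 11.38 to 12.39 in tumors (median 12.02) and 10.94, 9.05, 8.65 and 8.81 in wildtype 1, adjacent 1, adjacent 2 and wildtype 3, with no overlap. Spdef, a driver of mucous secretory cells, rose by 1.59 ± 0.34, Sox21 by 1.34 ± 0.34 and Foxa3 by 1.22 ± 0.33. The count was 5 of 8 when wildtype replicate 1 was left out. Pdx1, the regional factor of duodenum and antrum, was read after its values were seen. It followed the choice of arrays: the chosen arrays lay at 10.76 to 11.64, tumors at 10.54 to 11.22 and the other normal arrays at 7.24 to 9.0. Its difference was -0.30 against the chosen arrays and 2.66 against the others.

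Among factors of intestinal identity, 3 of 9 fell. These were Maf (-1.14 ± 0.19), Hnf4g (-1.04 ± 0.22), a nuclear receptor that drives brush-border genes, and Vdr (-0.63 ± 0.16), the vitamin D receptor. Hnf4g was 10.60 to 11.88 in tumors (median 11.22) and 11.89, 12.58, 12.20 and 12.41 in wildtype 1, adjacent 1, adjacent 2 and wildtype 3. Its partner Hnf4a, read after its values were seen, differed by 0.00 ± 0.09 (adjusted p = 0.99). Creb3l3, a factor of lipid metabolism, followed the choice of arrays and differed by -1.07.

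Many genes of digestion and absorption followed the choice of arrays and were not tested. Of the 11 genes for sugar digestion and transport, 7 followed it and the other 4 fell: G6pc (-2.43 ± 0.52) and Fbp1 (-2.30 ± 0.41), both of glucose production, Slc2a5, the fructose transporter (-1.68 ± 0.20), and Mgam, maltase-glucoamylase (-0.96 ± 0.17). Slc2a5 was 10.25 to 11.18 in tumors (median 10.67) and 11.80, 12.29, 12.67 and 12.83 in wildtype 1, adjacent 1, adjacent 2 and wildtype 3. The list's median was -2.02 against the chosen and -2.94 against the other arrays. Of the 10 brush-border peptidases 9 followed the choice of arrays, with Naaladl1 at -3.47, Dpp4 at -2.98 and Enpep at -2.94 against the chosen arrays and -5.85, -4.05 and -4.31 against the others. The tested member was Tmprss15, described above. The list's medians were -2.41 and -3.14.

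In fat absorption 15 of 16 genes followed the choice of arrays. The remaining one, Apoa1, the main protein of high-density lipoprotein, fell by 1.27 ± 0.16, and was -1.40 against the other arrays. Apoc3 stood at -2.69, Cd36 at -2.51 and Fabp2 at -1.83 against the chosen arrays. In amino acid and peptide transport 2 of 3 tested genes fell, Slc6a20a (-1.30 ± 0.25) and Slc7a9 (-1.0 ± 0.21). Slc16a10 and Slc6a19, transporters of aromatic and neutral amino acids, followed the choice and stood at -2.35 and -2.30. In vitamin and organic acid uptake 3 of 6 fell and 1 rose. The 3 were Slc46a1, the proton-coupled folate transporter (-1.44 ± 0.27), Lrat (-1.37 ± 0.26) and Rbp2 (-0.97 ± 0.25), both of retinoid handling, and the raised gene was Slc52a3, a riboflavin transporter (0.66 ± 0.16). Of the cytoskeletal genes of the brush border, 2 of 3 tested fell, Cdhr2 (-0.87 ± 0.18) and Cdhr5 (-0.50 ± 0.14), the protocadherins that link microvilli.

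In drug metabolism, 8 of 12 tested genes fell, with a median of -1.62 over all 15. With wildtype replicate 1 left out, 9 fell. Beside Cyp3a11, Cyp2b10 and Cyp2c29, Cyp2c66 fell by 2.22 ± 0.29. It measured -2.19 against the other normal arrays, near the value against the chosen ones.

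Promoter sequence was read for the genes changed by at least 2-fold, as a description only. Of the tested genes 13967 had an entry in RefSeq's promoter table (GRCm38.p6), here the 250 bases before the gene start. The letters CAAAGTCCA, the textbook core bound by HNF4 factors, were searched on both strands. They occurred in 6 of 160 lowered genes (3.75%), 0 of 295 raised genes, 63 of all 13967 tested genes (0.451%) and 126 of all 32851 promoters (0.384%). The other motifs searched were the CDX letters TTTATNG (14.4% of lowered, 12.2% of raised and 9.79% of tested genes), the AP-1 letters TGANTCA (5.0%, 8.81% and 6.94%) and the GATA letters AGATAA (13.1%, 6.78% and 10.1%). Over all promoters the 3 shares were 9.81%, 6.75% and 9.99%. The CDX letters can overlap a TATA box. A match is a run of letters and shows no binding.

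The 6 windows are shown because the most lowered gene, Cyp3a11, is among them. Each is written 5′ to 3′ along the gene's strand with the HNF4 letters, or their reverse complement, in capitals.
Cyp3a11 (chr5:145879925-145879993, minus strand): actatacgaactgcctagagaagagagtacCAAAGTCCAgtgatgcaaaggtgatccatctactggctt
Cyp2c67 (chr19:39649129-39649197, minus strand): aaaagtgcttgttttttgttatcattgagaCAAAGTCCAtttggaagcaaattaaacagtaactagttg
Cyp2c68 (chr19:39741140-39741208, minus strand): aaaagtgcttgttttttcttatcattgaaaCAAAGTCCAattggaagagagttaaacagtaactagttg
Cd302 (chr2:60284579-60284647, minus strand): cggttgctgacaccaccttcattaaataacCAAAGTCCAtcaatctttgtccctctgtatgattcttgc
Trim31 (chr17:36897970-36898038, plus strand): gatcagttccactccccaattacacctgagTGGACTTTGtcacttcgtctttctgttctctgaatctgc
Ptpn22 (chr3:103859747-103859794, plus strand): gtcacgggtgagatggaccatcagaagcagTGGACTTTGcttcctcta

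Of these 6 genes, Cyp2c68 fell by 1.66 ± 0.35, Ptpn22, a lymphocyte phosphatase, by 1.31 ± 0.20, Cd302 by 1.30 ± 0.21, Cyp2c67 by 1.22 ± 0.27 and Trim31 by 1.06 ± 0.21. The letters start 109 bases before the gene start in Cyp3a11, given as -109, and at -125, -77, -133, -130 and -18 in Cyp2c67, Cyp2c68, Cd302, Trim31 and Ptpn22. Cyp2c67 and Cyp2c68 have near-identical windows and are not independent examples. The 5 genes other than Cyp3a11 were named after the motif was found in them.

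Several tumor differences were large against one set of normal arrays and small against the other. Proximal uptake genes were high in tumors and in the chosen arrays alike. Slc40a1, the iron exporter ferroportin, was at 11.28 to 12.61 in tumors (median 12.07), 12.30, 12.93, 12.58 and 12.80 in wildtype 1, adjacent 1, adjacent 2 and wildtype 3, and 7.96 to 9.52 in the other normal arrays. Its difference was -0.65 against the chosen and 3.16 against the other arrays. Trpv6, the apical calcium channel, stood at -0.85 and 2.17. The medians of the iron and calcium list were -0.34 and 1.12. Of its 3 members that did not follow the choice of arrays, Heph, the ferroxidase that works with ferroportin, fell by 1.07 ± 0.21 and Hmox1, haem oxygenase, rose by 0.71 ± 0.18.

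The ferric reductase Cybrd1 and the trefoil peptide Tff2 were read after their values were seen. Cybrd1 was at 13.03 to 13.70 in tumors (median 13.36), 13.41, 13.54, 12 and 12.87 in wildtype 1, adjacent 1, adjacent 2 and wildtype 3, and 7.70 to 8.62 in the other normal arrays, which gave differences of 0.45 and 5.21. Tff2 was at 14.24 to 14.39 in tumors (median 14.33), 14.21, 12.44, 13.74 and 11.98 in the same chosen arrays and 7.19 to 7.76 in the others, which gave 1.23 and 6.86. Values above 14 are near the top of the array's scale, where differences may be compressed.

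The list of genes of the more distal small intestine had a median of -1.31 against the chosen and -2.55 against the other arrays. Of its 10 genes 6 followed the choice of arrays. Fabp6, Slc10a2 and Fgf15, genes of ileal bile acid uptake and its hormone, did not. They differed by 0.02, 0.06 and -0.10 against the chosen and 0.04, -0.14 and -0.20 against the other arrays. Their signals were low: in tumors Fabp6 ran from 5.28 to 5.45, Slc10a2 from 5.48 to 6.17 and Fgf15 from 6.58 to 7.13. Array medians were 7.11 to 7.29, so these small differences say little about a change. Slc5a12, Slc23a1 and Slc5a4b are outside the list and, like Enpp7 and Cubn, were taken because they separate the 2 sets of normal arrays most, which fixes their pattern. Slc5a12 was at 5.48 to 6.04 in tumors (median 5.77), 5.61, 5.53, 8.10 and 6.47 in wildtype 1, adjacent 1, adjacent 2 and wildtype 3, and 11.68 to 12.85 in the other normal arrays. Its difference was -0.69 against the chosen and -6.72 against the other arrays. Slc23a1 stood at -0.49 and -4.69, Enpp7 at -1.27 and -6.21, Slc5a4b at -1.21 and -5.09, and Cubn at -1.58 and -5.74. In contrast Bst1, an ectoenzyme that forms cyclic ADP-ribose, was at 10.54 to 11.86 in the chosen arrays and 6.84 to 7.82 in tumors, with -4.20 against the chosen and -5.46 against the other arrays. Slc51b and Slc51a, the subunits of the bile acid exporter, stood at -2.46 and -1.75 against the chosen arrays. Of the 4 genes of the list that could be tested, 1 fell: Nr0b2, the bile acid-induced repressor Shp (-0.89 ± 0.22). Both comparisons share the 6 tumors, and their values are set side by side without a test.

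**Figure D3:**
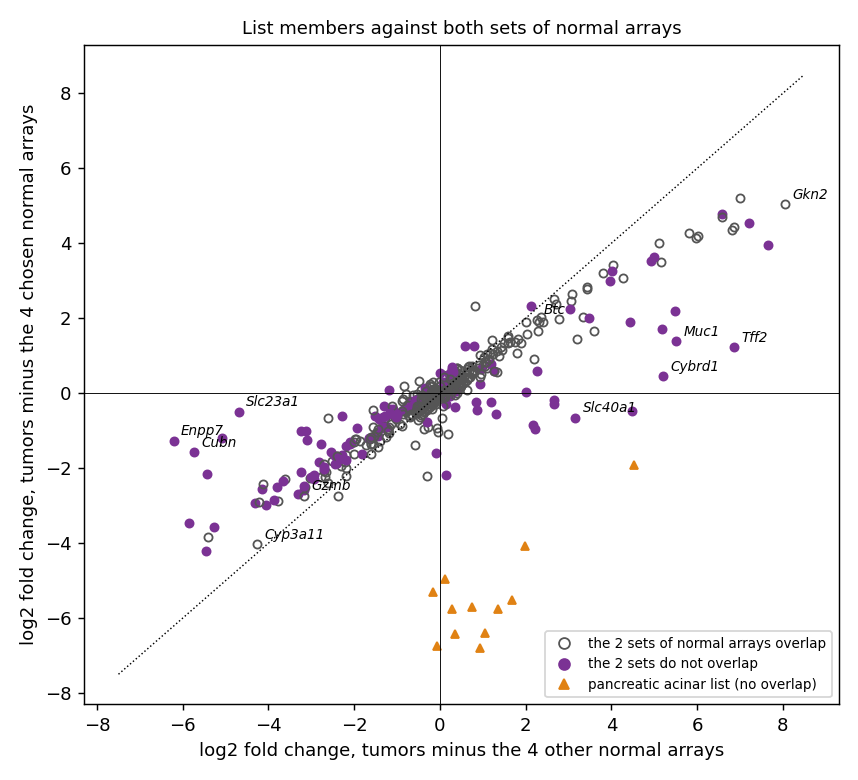
Log2 fold change of each list member in tumors against the 4 other normal arrays (horizontal axis) and against the 4 chosen normal arrays (vertical axis); the dotted line marks equal values, filled circles are genes for which the 2 sets of normal arrays do not overlap, and triangles are pancreatic acinar genes. Cybrd1 (5.21 and 0.45) and Enpp7 (-6.21 and -1.27) lie far from the line, Cyp3a11 (-4.26 and -4.04) lies near it.

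Regenerative epithelium, the fetal-like state of repairing gut, is marked by clusterin, annexins and squamous-type keratins and cornifins. All 7 of its genes that could be tested rose. In each of the 11 genes of the list, all tumors lay above all 4 chosen normal arrays, and the median was 2.52 (3.82 against the other arrays, 3.08 without wildtype replicate 1). Beside Anxa1 and Anxa8, Krt7, a keratin of simple ducts, rose by 2.52 ± 0.41 and Il33, an alarmin, by 2.32 ± 0.45. Krt7 was 11.97 to 12.57 in tumors (median 12.28) and 11.74, 9.01, 9.31 and 9.13 in wildtype 1, adjacent 1, adjacent 2 and wildtype 3. Il33 depended on the reference in the other direction: it was at 10.50, 8.06, 9.28 and 7.98 in these arrays and at 10.32 to 10.57 in the other normal arrays, against 10.52 to 11.94 in tumors, so its difference was 0.82 against the others. The list mean of wildtype replicate 1, 11.23, lay between the other chosen arrays (8.95 to 9.55) and the tumors (11.74 to 12.39).

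Crypt stem cell genes moved in both directions, with 4 of 13 raised and 3 lowered. Prom1 (1.97 ± 0.29), Sox9 (1.89 ± 0.28), a factor of progenitor cells, and Slc12a2 (0.97 ± 0.16) rose, while Lgr5, the Wnt-dependent stem cell receptor, fell by 0.90 ± 0.25. Sox9 was 11.39 to 12.59 in tumors (median 12.28) and 11.36, 10.01, 9.95 and 9.95 in wildtype 1, adjacent 1, adjacent 2 and wildtype 3. Of 11 Wnt target genes 2 rose, the hyaluronan receptor Cd44 (2.47 ± 0.28) and Ephb3 (1.47 ± 0.23), and 2 fell, Lgr5 and Sp5 (-0.61 ± 0.12), so the list showed no common direction (median 0.03). Of 16 testable proliferation genes 2 rose, Plk1 (0.61 ± 0.18) and Mcm5 (0.57 ± 0.14). This share was near the 11.4% raised over all tested genes. Without wildtype replicate 1 the count was 5, in a fit where 13.5% of all tested genes rose.

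Since Lrig1 restrains ErbB receptors, their ligands and the downstream ERK genes were read next. Of 13 genes for receptors, ligands and regulators, 4 rose. Btc, betacellulin, a ligand of Egfr and Erbb4, rose by 1.96 ± 0.16 (adjusted p = 3.9e-05). It was 9.55 to 10.08 in tumors (median 9.86), 8.38, 7.92, 7.56 and 7.85 in wildtype 1, adjacent 1, adjacent 2 and wildtype 3, and 7.45 to 7.63 in the other normal arrays. The tumors lay within a narrow range above every normal array. Egfr itself rose by 1.17 ± 0.19, with 10.12 to 10.63 in tumors against 9.85, 9.17, 8.89 and 8.59 in the chosen arrays in the same order. The ligands Ereg, epiregulin (1.00 ± 0.29), and Nrg1, neuregulin 1 (0.61 ± 0.17), rose less. Without wildtype replicate 1, 6 rose. The median of the whole list was 0.28.

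Of 14 ERK feedback and target genes, 7 rose. The largest were Phlda1 (2.02 ± 0.42), Dusp4, a phosphatase of ERK (1.45 ± 0.23), and the transcription factors Etv5 (1.42 ± 0.21) and Fosl1 (1.33 ± 0.28). Phlda1 was 10.06 to 11.31 in tumors and 10.83 in wildtype 1, which lay inside that range, against 8.55, 7.84 and 8.6 in adjacent 1, adjacent 2 and wildtype 3. Without wildtype replicate 1, 10 of the 14 rose.

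All 14 T and NK cell genes of the list fell, and in 13 of them every tumor lay below every chosen normal array; the median was -1.66 (-1.86 without wildtype replicate 1, -2.30 against the other normal arrays). Gzmb, granzyme B, fell by 2.74 ± 0.25 (adjusted p = 8.2e-05). It was 6.79 to 8.02 in tumors (median 7.10), 9.23, 10.44, 10.24 and 9.76 in wildtype 1, adjacent 1, adjacent 2 and wildtype 3, and 10.05 to 10.55 in the other normal arrays. Granzyme A, Gzma (-2.52 ± 0.30), the CD3 chain Cd3g (-2.26 ± 0.37) and the chemokine Ccl5 (-2.23 ± 0.35) followed. The list mean of wildtype replicate 1 was 8.48, the lowest of the normal arrays, and the tumors ran from 7.14 to 8.10.

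Antigen presentation and interferon response genes fell in 8 of 9 testable cases. H2-DMa, which loads peptide onto MHC class II, fell by 2.23 ± 0.23, H2-Aa, a class II chain, fell by 1.94 ± 0.19, the immunoproteasome subunit Psmb8 by 1.83 ± 0.21 and H2-Eb1 by 1.37 ± 0.17. H2-DMa was 8.83 to 9.85 in tumors (median 9.17) and 10.89, 12, 11.61 and 11.56 in wildtype 1, adjacent 1, adjacent 2 and wildtype 3. MHC class II is made by enterocytes as well as by antigen-presenting cells. Of 12 macrophage and dendritic cell genes 5 fell, among them Xcr1 (-0.72 ± 0.16), C1qb (-0.56 ± 0.16) and C1qc (-0.52 ± 0.14), and Cd14, a receptor for bacterial lipopolysaccharide, rose by 1.37 ± 0.20. Of 9 B and plasma cell genes, 1 fell. This was Derl3 (-1.38 ± 0.32), a factor of protein export from the endoplasmic reticulum in secretory cells. It stood at -0.58 against the other normal arrays, where acinar genes were low. The part of acinar RNA in the Derl3 result was not tested.

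Mast cell genes rose in 5 of 11 cases, with a list median of 0.34. Kit, Fcer1a and Ms4a2, also of this list, were read after their values were seen: in each, 0 tumors lay above all chosen arrays. Wildtype replicate 1 was the highest chosen array in each, at 8.81, 6.55 and 5.70. The other 3 chosen arrays reached at most 8.34, 5.62 and 5.22, and the tumor medians were 8.385, 5.62 and 5.26. Fcer1a and Ms4a2 lay below the array medians throughout. Beside Mcpt2, the mucosal protease Mcpt1 rose by 3.49 ± 0.84 and Mcpt4 by 2.78 ± 0.41, while Tpsb2, a tryptase, rose by only 0.39 ± 0.10. These proteases are related genes whose probes may overlap. The list mean was 7.62 to 8.38 in tumors, 7.86 in wildtype replicate 1 and 6.12 to 6.91 in the other 3 chosen arrays. Of 13 type 2 response genes 2 rose, Chil4, a chitinase-like lectin (4.15 ± 1.18), and Il4ra (0.70 ± 0.16). With wildtype replicate 1 left out, 4 rose. The 2 of 13 in the main fit were not far above the 11.4% raised over all tested genes. Chil4 was 9.71 to 13.31 in tumors and 11.88 in wildtype 1, against 4.75, 5.06 and 5.05 in the other 3.

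**Figure D4:**
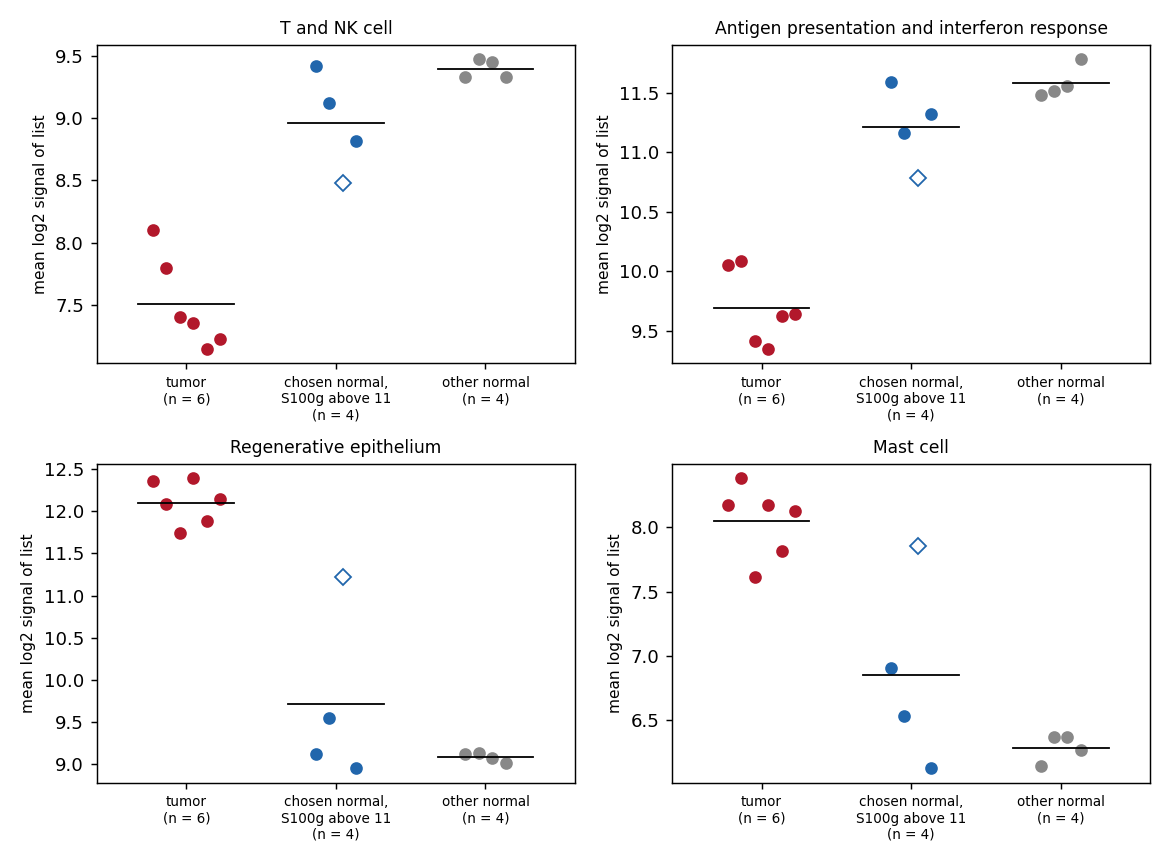
Mean log2 signal of 4 gene lists in each array, with group means as black bars and wildtype replicate 1 as an open diamond. The T and NK cell mean is 7.14 to 8.10 in tumors and 8.48 or higher in every normal array, while the regenerative mean is 11.74 or higher in tumors and at most 11.23 in normal arrays.

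Of 17 inflammatory cytokine and prostaglandin genes, 7 rose and 1 fell. Beside Il33, the largest were Il1a (1.91 ± 0.49), Ptgs2, the inducible cyclooxygenase (1.89 ± 0.42), and the chemokine Cxcl2 (1.52 ± 0.44). Ptgs2 was 8.75 to 10.75 in tumors (median 10.46) and 9.40, 7.51, 7.76 and 7.95 in wildtype 1, adjacent 1, adjacent 2 and wildtype 3, so that wildtype replicate 1 lay inside the tumor range. Without it 5 rose and 1 fell. Of 8 neutrophil genes 0 rose and 0 fell in limma, with a median of 0.43. Ltf, lactoferrin, followed the choice of arrays and differed by 2.24. At an unadjusted p under 0.05, 2 of these 8 genes were higher and 0 lower.

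Secretory lineages changed in part. Of 9 goblet cell genes 2 rose, Spdef and the disulphide isomerase Agr2 (1.04 ± 0.18), and 2 fell, Muc13 (-0.44 ± 0.13) and Zg16 (-0.34 ± 0.09). In the fit without wildtype replicate 1, 5 goblet cell genes rose and 1 fell. Of 9 Paneth cell genes 3 fell: Reg3a (-2.90 ± 0.76), an antibacterial lectin, Defa24 (-2.40 ± 0.68), an alpha-defensin with near-identical copies, and Itln1 (-1.36 ± 0.34). In the fit without wildtype replicate 1, 2 Paneth cell genes fell. Reg3a was 7.67 to 9.44 in tumors and 8.31 in wildtype 1, against 10.71, 13.73 and 11.66 in adjacent 1, adjacent 2 and wildtype 3. Of 12 enteroendocrine genes 4 fell, among them Gcg (-1.99 ± 0.39), the precursor of glucagon-like peptides, and Cck (-1.18 ± 0.31). Gcg is also an islet gene: Iapp, islet amyloid polypeptide, fell by 2.21 ± 0.68, and the islet list mean was 9.16 in adjacent 2 and 7.87 in wildtype 3 against 6.67 to 7.11 in tumors. Of 4 testable islet genes 1 fell, and 2 without wildtype replicate 1. The part of islet RNA in the Gcg result was not tested. Of 10 tuft cell genes 1 rose, Avil, an actin-binding villin relative (2.38 ± 0.43), while Sh2d6 differed by -0.46 ± 0.24 (adjusted p = 0.24). In the fit without wildtype replicate 1, 3 tuft cell genes rose. The 1 of 10 in the main fit was near the 11.4% raised over all tested genes.

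Of 18 stromal fibroblast and matrix genes 3 rose, Timp1, an inhibitor of matrix proteases (1.34 ± 0.31), Sparc (0.83 ± 0.19) and the BMP antagonist Grem1 (0.67 ± 0.21). At an unadjusted p under 0.05, 9 of the 18 were higher and 1 lower, with no share over all genes counted at that threshold. Without wildtype replicate 1, 5 of the 18 rose after adjustment. The collagenase gene Mmp13 followed the choice of arrays and differed by 2.31. Of 12 smooth muscle and enteric nerve genes 1 rose, S100b, a marker of enteric glia (0.82 ± 0.14). Smooth muscle genes were detectable in tissue that the labels call epithelium: the list mean was 8.76 to 9.90 in the chosen arrays and 8.14 to 9.93 in tumors. Of 10 endothelial genes 0 rose and 0 fell in limma, with a median of 0.07. At an unadjusted p under 0.05, 1 of these 10 genes was higher and 1 lower.

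**Figure D5:**
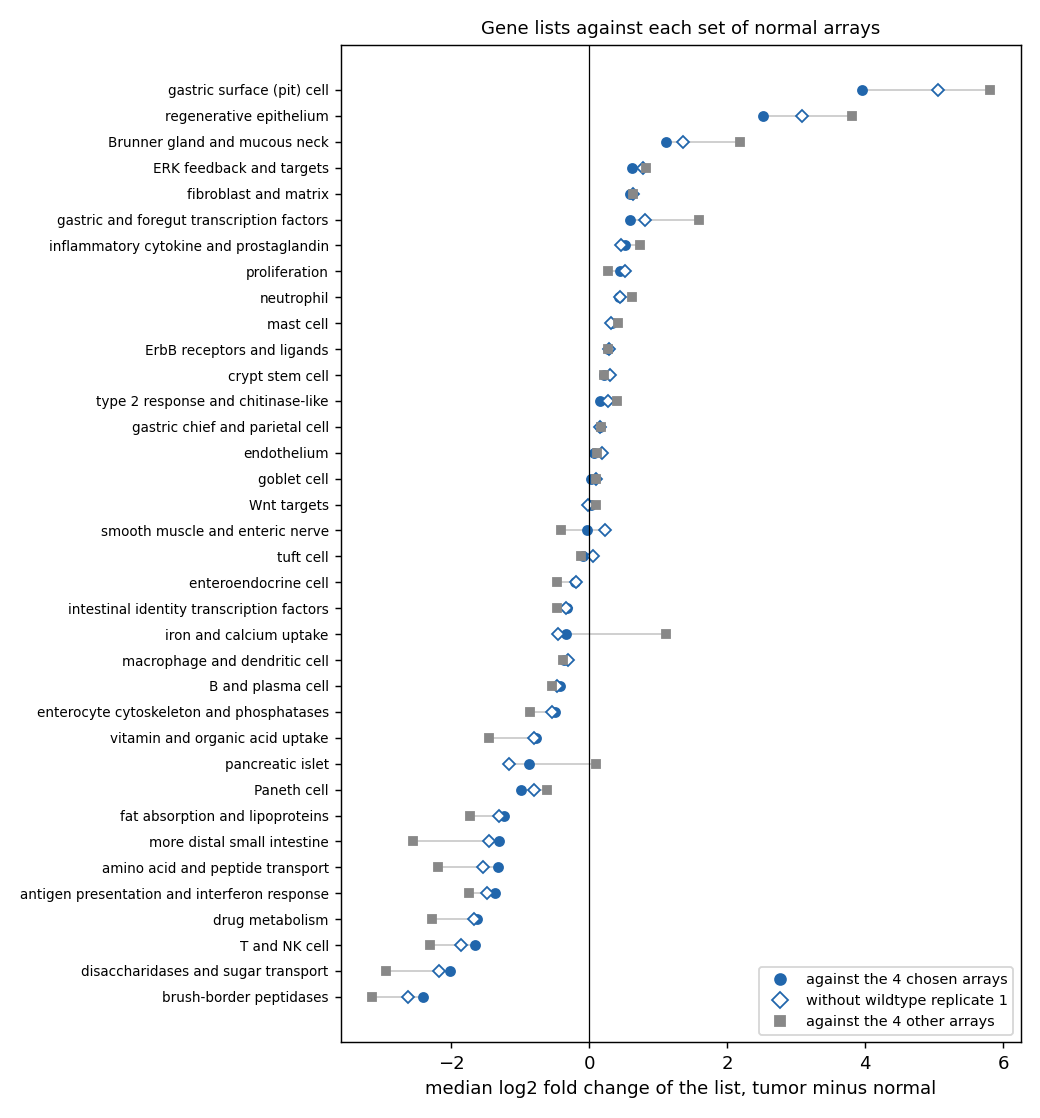
Median log2 fold change of each gene list except the acinar list in tumors against the 4 chosen normal arrays (filled circles), against these without wildtype replicate 1 (open diamonds) and against the 4 other normal arrays (squares). The iron and calcium list lies at -0.34 against the chosen and 1.12 against the other arrays, and the gastric surface list at 3.96 and 5.80.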

How the data were processed

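Affymetrix Mouse Gene 1.0 ST arrays measured the RNA of each tissue sample. The deposited table holds log2 signal, a unit read from the values, for 35556 transcript clusters. The submitters' processing notes list Affymetrix Expression Console 1.1 and mm9; the normalization is not given in the sources used here. A single gene symbol was given to 21789 clusters, which left 19938 genes after keeping the cluster with the highest mean. Array medians ran from 7.11 to 7.29, and no further scaling was applied. The number of arrays limits the precision.

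limma 3.58.1 in R 4.3.3 fitted 2 group means to the 10 arrays, with arrays of 1 mouse correlated through a random block (0.304), followed by a two-sided moderated test with Benjamini-Hochberg adjustment over all genes. The pairing comes from the mouse names: deviations from group means correlated at r = 0.492 and 0.158 in the 2 pairs and at -0.0280 on average between different mice. Mice are separate animals, and p-values measure the spread between arrays within the 2 groups. In the normal group this spread also holds the difference between wildtype and null mice and the distance of wildtype replicate 1. On simulated data over 19938 genes, the fit recovered 88 of 100 genes changed by 1 log2 unit and 99 of 100 changed by 2, with 7 calls among 19738 unchanged genes. The simulation used normal noise, with the same spread in both groups of a gene, few changed genes and no outlying array. It therefore does not show how the fit performs with the unequal spreads and the outlying array of these data.

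Named genes were S100g, Lrig1, the 12 most raised and the 12 most lowered among genes that passed, had no overlap between groups and did not follow the choice of arrays, up to 4 members of each of 37 gene lists, and the genes that most separated the chosen arrays or wildtype replicate 1. Immunoglobulin, T cell receptor, defensin, olfactory, vomeronasal, small RNA, predicted and unnamed genes did not enter the sets taken by size. The members, the lists (498 entries, 38 without a gene) and the rules were chosen with earlier results of these data known.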

Additional observations from a re-analysis of the deposited data

Results flagged for a closer look

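S100g, Lrig1, the 12 most raised genes, the 12 most lowered genes and the list means were read here, and other named genes were not. The group of 6 tumors and the group of 4 chosen normal arrays were each examined for an outlying array. Such an array is one whose gap to its nearest neighbour took most of the group's range (Dixon's test). Of 126 sets of values examined, 13 held one, where chance gives about 1 in 20 for a single set. The same arrays recur in all 126, which are therefore not independent, so the 13 do not measure an excess over chance.

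Wildtype replicate 1 was the outlying array in 10 of the 13. Among the chosen normal arrays it measured 9.15 for Tmem45a (the others 5.65 to 5.89), 11.94 for S100a6 (8.04 to 8.53), 8.49 for Anxa8 (6.42 to 6.50), 9.17 for Slc26a9 (6.57 to 6.78) and 9.52 for Tmprss15 (11.18 to 11.46). Its list means were 11.42 for Brunner gland and mucous neck genes (9.44 to 9.76), 10.62 for sugar digestion and transport (11.64 to 11.83), 12.01 for fat absorption (12.60 to 12.69), 8.90 for ERK feedback and targets (8.16 to 8.27) and 8.21 for the type 2 response (6.95 to 7.06). In all 10 it differed from the other 3 arrays in the direction of the tumors.

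Among tumors, replicate 2 was the lowest for S100a6, at 11.94 against 12.33 to 12.55. Tumor replicate 3 had a mean of 8.54 for chief and parietal cell genes against 6.79 to 7.37, and tumor replicate 4 a mean of 8.72 for endothelial genes against 8.09 to 8.31.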

How the results depend on the processing

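The counts of changed genes held within 1.5 times under another normalization, a filter on dim genes, averaged transcript clusters, array weights, all 14 arrays in 1 fit, the ID letter as a covariate and a trended, robust variance. With no replicate block for the mouse, 1548 genes rose and 623 fell. With the replicate block as a fixed effect, so that only the 2 mice with both tissues inform the difference, 868 rose and 431 fell. Mice with an F gave 640 raised and 237 lowered genes, 147 and 107 of them changed at least 2-fold. Wildtype arrays alone gave 146 and 90, and 77 and 61 at least 2-fold, from 2 normal arrays that include wildtype replicate 1. Leaving out 1 array gave 897 to 2418 raised genes and 354 to 847 lowered ones, and at least 2-fold 271 to 518 and 149 to 239. The lowest counts came without adjacent replicate 1 (897, 354, 271 and 149). Raised genes were also fewer without adjacent replicate 2 (932, and 420 lowered), tumor replicate 2 (1213) and tumor replicate 3 (1236); each of these steps leaves 1 mouse pair, so those fits have no block. No called gene or count changed direction. Of 109 named genes called, 23 kept the call against wildtype arrays alone, 41 in mice with an F, 91 against adjacent arrays alone and 106 without wildtype replicate 1. Of the medians of the lists under the alternatives, 830 of 851 moved by less than 1 SD of the list mean.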
